A study of Mus musculus with 16 samples.

Results

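The genes described here are 38 mouse genes of the unfolded protein response and the integrated stress response, chosen by name. All 38 were found among the 19938 genes that had a transcript cluster (a set of array probes for 1 gene) with a single gene symbol. They comprise 14 chaperones and folding enzymes of the endoplasmic reticulum (ER), 4 genes of ER-associated degradation, 4 stress sensors, the central transcription factors Xbp1 and Atf4, 13 targets of ATF4 and the phosphatase subunit gene Ppp1r15b. The donors were 8 males of the Balb/cJ strain, 10 weeks old, whose eyes lack melanin. In 4 mice, white fluorescent light of 10000 lux was given for 18 hours, and tissue was taken 4 hours after it ended; the other 4 mice stayed on a cycle of 12 hours of light and dark. Each mouse gave 2 tissues, the retinal pigment epithelium (RPE), a single layer of cells behind the photoreceptors, and the neurosensory retina (NSR), so that light-exposed RPE, control RPE, light-exposed NSR and control NSR each had 4 one-colour Affymetrix Mouse Gene 1.0 ST arrays. The study asked what photic injury does to gene expression in both tissues. Bright light and the lost dark phase came together, and their parts in any difference cannot be told apart.

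The unfolded protein response starts when unfolded proteins gather in the ER. It runs through IRE1 (encoded by Ern1), PERK (Eif2ak3) and ATF6 (Atf6), which sit in the ER membrane. IRE1 splices Xbp1 mRNA and ATF6 is cut to a transcription factor, and both raise chaperones and degradation genes. PERK phosphorylates eIF2alpha, as do GCN2 (Eif2ak4), PKR and HRI in the wider integrated stress response, which lowers general translation while ATF4 is still made. ATF4 raises genes of amino acid supply, CHOP (Ddit3) and the phosphatase subunit GADD34 (Ppp1r15a), which ends the signal. Photoreceptors make large amounts of membrane protein for their outer segments, and the RPE secretes proteins and takes up shed outer segment tips every day, so both tissues depend on ER folding.

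Promoter sequences are shown because factors of these branches bind there. The ER stress response element, to which ATF6 binds together with the factor NF-Y, was searched as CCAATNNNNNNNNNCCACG (N stands for any base) on both strands of RefSeq promoter windows of the GRCm38.p6 assembly, which run 300 bases from 250 before the start site to 50 from it. There were 37 windows for 33 of the 38 genes, since Atf5, Eif2ak4, Psat1 and Vldlr each had windows at 2 start sites, and a gene was counted where any of its windows matched. The element was found in 7 of 12 chaperone and folding genes with a window (58.33%) and in Syvn1, a degradation gene, against 0.1345% of 15614 genes with a window. Of the 15614 genes, which include those listed here, 21 hold the element, and 8 of these are among the 38. Motifs and gene lists both come from earlier knowledge of this response. The shares here and below are therefore descriptions and not results of a test. The element was found in 0 of 12 ATF4 targets. The 9 matches are printed in the direction of the motif, 5′ to 3′, with the searched letters in capitals and the free bases in lower case. Positions count from the start site as 0.
Hspa5, chr2:34772025-34772043, plus strand, bases -65 to -47: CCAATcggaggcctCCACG
Hsp90b1, chr10:86705638-86705656, minus strand, bases -212 to -194: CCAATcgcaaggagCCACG
Hsp90b1, chr10:86705533-86705551, plus strand, bases -107 to -89: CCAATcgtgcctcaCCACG
Pdia6, chr12:17266491-17266509, plus strand, bases -98 to -80: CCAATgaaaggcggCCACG
Calr, chr8:84847075-84847093, plus strand, bases -162 to -144: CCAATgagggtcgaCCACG
Canx, chr11:50325800-50325818, minus strand, bases -145 to -127: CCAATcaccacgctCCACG
Creld2, chr15:88819520-88819538, minus strand, bases -126 to -108: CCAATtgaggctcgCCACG
Dnajc3, chr14:118937827-118937845, plus strand, bases -105 to -87: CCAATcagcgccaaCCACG
Syvn1, chr19:6046532-6046550, plus strand, bases -44 to -26: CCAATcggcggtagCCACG

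A second form of the element, searched as ATTGG and CCACG with 1 free base between them, was found in 2 of the 33 genes and in 0.05764% of all genes with a window. Its matches lie in Dnajb11, an ER cochaperone, and in Herpud1, a degradation gene.
Dnajb11, chr16:22857852-22857862, plus strand, bases 7 to 17: ATTGGcCCACG
Herpud1, chr8:94386377-94386387, plus strand, bases -52 to -42: ATTGGgCCACG

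The core of the composite site for C/EBP and ATF factors, to which ATF4 binds, was searched as TGATGNAA and has no fixed overlap with the other motifs. It was found in 5 of the 33 genes (15.15%), against 3.619% of all genes with a window. Of these, 4 are ATF4 targets (Asns, Chac1, Trib3 and Vldlr, of 12 with a window), and the other is Herpud1. The core of the unfolded protein response element, TGACGTGG, to which XBP1 binds, was in 0 of the 37 windows and in 0.9158% of all genes with one. No match says only that these letters are not in this window. Whole windows are shown for 4 genes that the results return to or that show different motifs: Hspa5, the main ER chaperone; Creld2, with the element on the strand opposite the gene; Herpud1, with the second form and the composite core; and Asns, a textbook ATF4 target. They are written in the direction of the gene, with matches in capitals.
Hspa5, chr2:34771840-34772139, plus strand: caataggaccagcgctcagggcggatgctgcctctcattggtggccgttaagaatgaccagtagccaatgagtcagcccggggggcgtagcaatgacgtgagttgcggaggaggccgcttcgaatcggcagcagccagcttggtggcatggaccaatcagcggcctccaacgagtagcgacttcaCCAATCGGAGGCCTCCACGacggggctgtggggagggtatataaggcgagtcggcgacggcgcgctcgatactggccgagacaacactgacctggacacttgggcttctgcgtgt
Creld2, chr15:88819396-88819695, plus strand: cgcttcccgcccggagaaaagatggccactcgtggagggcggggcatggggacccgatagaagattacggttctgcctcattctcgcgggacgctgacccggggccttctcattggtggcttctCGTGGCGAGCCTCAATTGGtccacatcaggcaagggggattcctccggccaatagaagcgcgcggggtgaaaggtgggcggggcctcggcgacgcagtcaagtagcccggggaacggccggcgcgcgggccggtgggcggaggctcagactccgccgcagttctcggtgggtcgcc
Herpud1, chr8:94386179-94386478, plus strand: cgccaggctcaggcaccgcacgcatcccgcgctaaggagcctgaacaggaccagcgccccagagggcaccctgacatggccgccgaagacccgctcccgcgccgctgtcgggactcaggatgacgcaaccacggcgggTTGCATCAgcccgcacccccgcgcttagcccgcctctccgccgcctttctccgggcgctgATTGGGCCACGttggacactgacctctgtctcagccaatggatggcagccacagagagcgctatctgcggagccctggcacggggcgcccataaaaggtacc
Asns, chr6:7693160-7693459, minus strand: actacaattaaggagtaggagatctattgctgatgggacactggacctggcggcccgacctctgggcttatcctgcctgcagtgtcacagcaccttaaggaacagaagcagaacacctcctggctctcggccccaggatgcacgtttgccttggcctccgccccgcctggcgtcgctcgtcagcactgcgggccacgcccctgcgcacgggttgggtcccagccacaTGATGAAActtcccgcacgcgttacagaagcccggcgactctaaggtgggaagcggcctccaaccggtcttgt

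**Figure D1:**
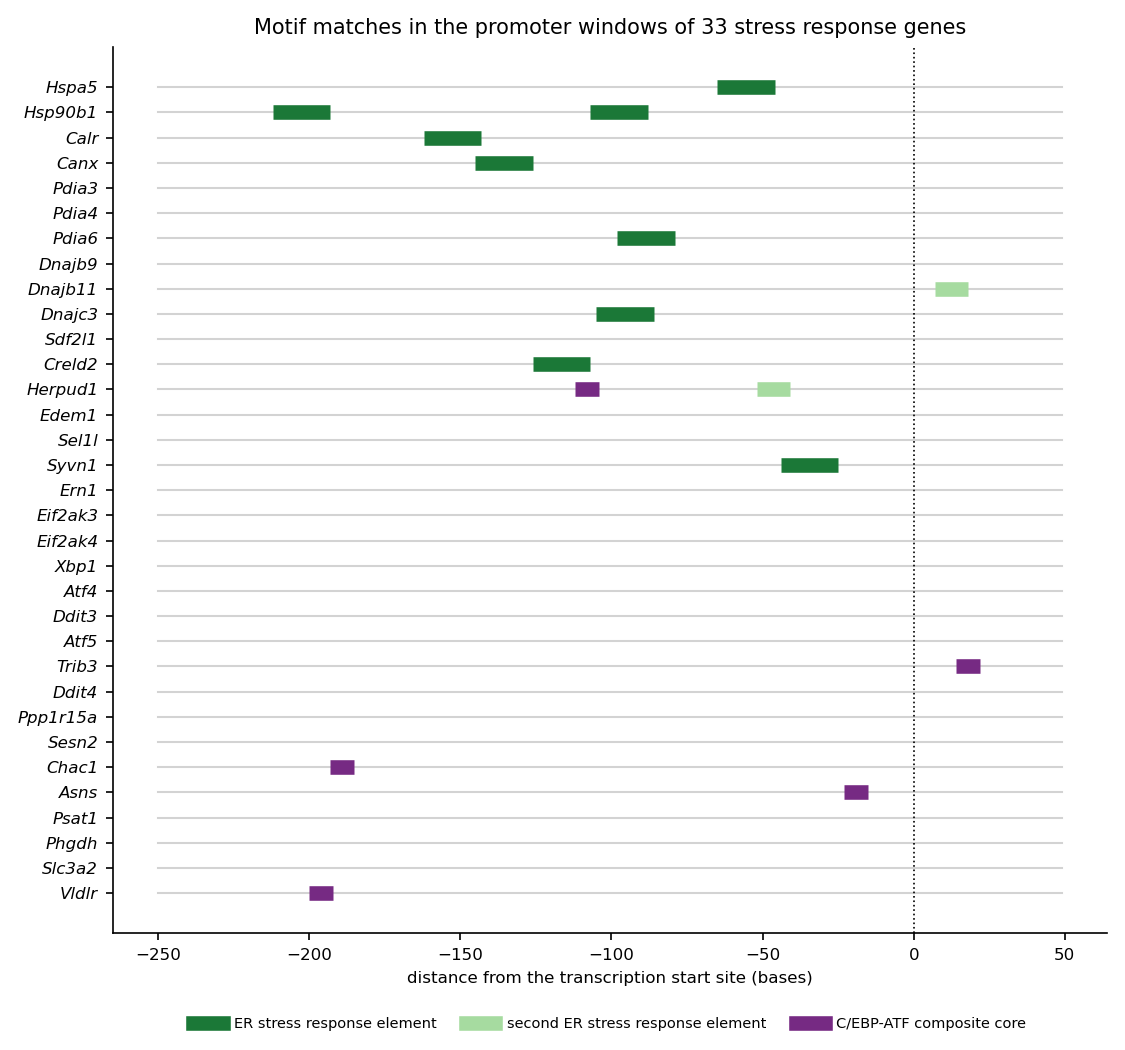
Each grey line stands for 1 of 33 genes, in bases from the transcription start site (dotted line), and each block is a match on either strand in any window of that gene. Matches to the ER stress response element (dark green) lie between -212 and -26, in 7 chaperone and folding genes and Syvn1, and 4 of the 5 matches to the composite core (purple) lie in ATF4 targets.

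The values are log2 expression as deposited, and a gene was counted as changed where limma's Benjamini-Hochberg adjusted p over all genes was below 0.05. Array medians lay between 6.38 and 6.57, and each array's mean correlation with the others of its group was at least 0.9914. Rpe65, which defines the RPE, averaged 12.27 in light-exposed RPE, against 12.90 in control RPE, and 4.11 in light-exposed NSR, against 5.10 in control NSR. The rod gene Gnat1 averaged 10.95 in light-exposed RPE, against 11.01 in control RPE, and 13.17 in light-exposed NSR, against 13.37 in control NSR, so that rod RNA was present in the RPE samples too. Of 20 RPE markers, 12 fell in light-exposed RPE (median of the list 11.11 to 11.34 over light-exposed arrays, 11.79 to 12.01 over control arrays), and of 17 rod markers 16 fell in light-exposed NSR (11.06 to 11.35, against 12.10 to 12.17). The median of 12 Müller glia markers was 8.22 to 8.37 in light-exposed NSR, against 9.22 to 9.28 in control NSR (6 fell and 4 rose), and 10.42 to 10.64 in light-exposed RPE, against 10.23 to 10.30 in control RPE (3 fell and 2 rose). This list was higher in RPE than in NSR and shares Rlbp1 with the RPE list, so it does not mark Müller glia alone. Of 15 markers of microglia and macrophages, 6 rose and 0 fell in light-exposed NSR, with a median of 5.93 to 6.22, against 5.83 to 5.96 in control NSR. In light-exposed RPE 2 of them rose and 1 fell (7.14 to 7.87, against 7.06 to 7.76). In such bulk samples fewer cells of a type and less RNA per cell cannot be told apart, and the part of these shifts in the results below was not tested. Of the RPE arrays, light 2 stood apart in cornea and ciliary body markers (9.40, where the other light-exposed ones had 6.38 to 6.86) and control 2 in lens markers (7.17, where the other control ones had 6.29 to 6.44). Light 1 had the most rod RNA among light-exposed RPE arrays (8.59, the others 7.99 to 8.17), but lay within the range of control RPE arrays (8.30 to 8.87). Control 1, also at 8.59, was kept. For the light responses of the 38 genes, counts and changed calls are therefore also given without these 3 arrays. That leaves 2 light-exposed and 3 control RPE arrays. RPE control 4 was the highest control array for 20 of the 38 genes, and 9 of the 14 chaperones.

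In light-exposed RPE 15 of the 38 genes rose and 5 fell, where 9.08% of all genes tested rose and 8.53% fell. The median log2 difference of the 38 genes, light-exposed minus control, was 0.09, against -0.01 over all genes. In light-exposed NSR 11 rose and 6 fell, where 8.87% of all genes rose and 6.24% fell, and the medians were 0.15 and -0.02. Asns, Ddit3, Eif2ak3, Ern1, Manf and Pdia6 rose in both tissues. Ddit4, Phgdh, Psat1 and Vldlr fell in both, and Slc7a5 rose in RPE and fell in NSR. No call was made in either tissue for 12 genes: Atf6, Canx, Chac1, Eif2ak4, Herpud1, Hsp90b1, Pdia3, Sel1l, Sesn2, Syvn1, Trib3 and Xbp1. Without the 3 RPE arrays, 9 rose and 4 fell in RPE, where 5.01% of all genes rose and 5.31% fell.

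**Figure D2:**
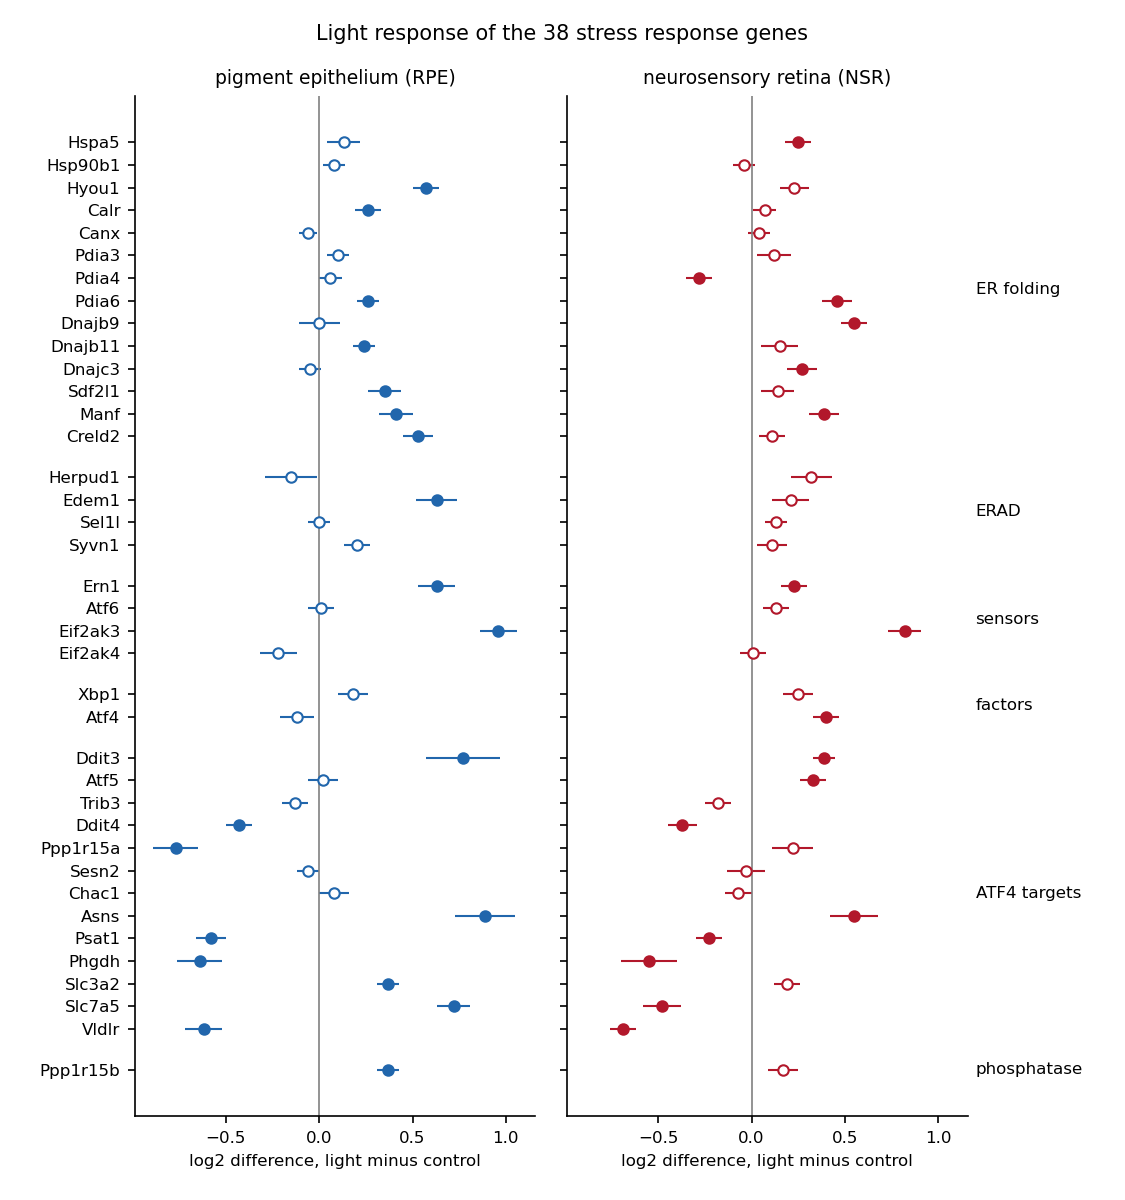
Points give each gene's log2 difference, light-exposed minus control, with its standard error, in the RPE (left) and the NSR (right), 4 arrays a group, and filled points passed the test. Of the ER folding genes 7 of 14 lie filled and right of 0 in the RPE and 5 of 14 in the NSR, while the 13 ATF4 targets spread to both sides of 0 in both tissues.

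Among the sensors, the PERK gene Eif2ak3 had the largest rise of all 38 genes in both tissues. The values that follow are those of mouse 1 to 4 of each group. Eif2ak3 stood at 9.48, 9.22, 9.18 and 9.40 in light-exposed RPE, against 8.24, 8.21, 8.46 and 8.53 in control RPE. It stood at 8.50, 8.49, 8.74 and 8.36 in light-exposed NSR, against 7.81, 7.71, 7.76 and 7.52 in control NSR. No light-exposed array overlapped a control array in either tissue. The rise was 1.94-fold in RPE (log2 difference 0.96, SE 0.10, adjusted p = 0.00015) and 1.77-fold in NSR (log2 difference 0.82, SE 0.09, adjusted p = 6.39e-05).

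Ern1, which encodes the kinase and RNase IRE1, rose in both tissues as well. It stood at 8.19, 8.39, 8.37 and 8.19 in light-exposed RPE, against 7.84, 7.43, 7.60 and 7.75 in control RPE. It stood at 7.92, 7.81, 7.90 and 7.74 in light-exposed NSR, against 7.57, 7.67, 7.51 and 7.69 in control NSR. The groups were again separate in both tissues. The rise was 1.55-fold in RPE (log2 difference 0.63, SE 0.10, adjusted p = 0.00152) and 1.18-fold in NSR (log2 difference 0.23, SE 0.07, adjusted p = 0.0414). The NSR call was lost without any of 6 single arrays (NSR control 1, 2 or 3 or NSR light 1, 2 or 3), with adjusted p between 0.0553 and 0.113. It was also lost with the replicate number as a block, after centring the array medians, after quantile normalization and in the fit of all 16 arrays. Atf6, the third ER sensor, differed by 0.01 in RPE (95% interval -0.14 to 0.16) and by 0.13 in NSR (-0.02 to 0.28). Eif2ak4, the kinase that senses missing amino acids, differed by -0.22 in RPE (-0.45 to 0.01) and by 0.01 in NSR (-0.15 to 0.16), and neither gene passed the test.

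Of the central transcription factors, Atf4 rose in NSR and neither passed in RPE. Atf4 stood at 9.18, 9.09, 9.20 and 9.31 in light-exposed RPE, against 9.19, 9.29, 9.25 and 9.54 in control RPE. It stood at 9.90, 9.91, 9.89 and 9.78 in light-exposed NSR, against 9.31, 9.56, 9.57 and 9.45 in control NSR. The RPE groups overlapped, while every light-exposed NSR array lay above every control NSR array. Atf4 rose 1.32-fold in NSR (log2 difference 0.40, SE 0.07, adjusted p = 0.0029) and did not pass the test in RPE (log2 difference -0.12, SE 0.09, adjusted p = 0.425). ATF4 protein is known to be set largely by translation, which an mRNA level does not show.

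Xbp1, whose mRNA is spliced by IRE1, passed the test in neither tissue. It stood at 8.90, 9.17, 9.10 and 9.07 in light-exposed RPE, against 8.71, 9.02, 8.89 and 8.88 in control RPE. It stood at 8.42, 8.59, 8.61 and 8.39 in light-exposed NSR, against 8.12, 8.23, 8.27 and 8.39 in control NSR. In NSR the lowest light-exposed array and the highest control array both printed as 8.39. The log2 difference was 0.18 in RPE (SE 0.08, adjusted p = 0.192) and 0.25 in NSR (SE 0.08, adjusted p = 0.0528). The NSR value passed without NSR control 4 or NSR light 4 (adjusted p 0.0381 and 0.0409). It also passed without the dimmest 25% of genes, with another variance prior and in the fit of all 16 arrays. A gene-level value holds spliced and unspliced Xbp1 together.

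**Figure D3:**
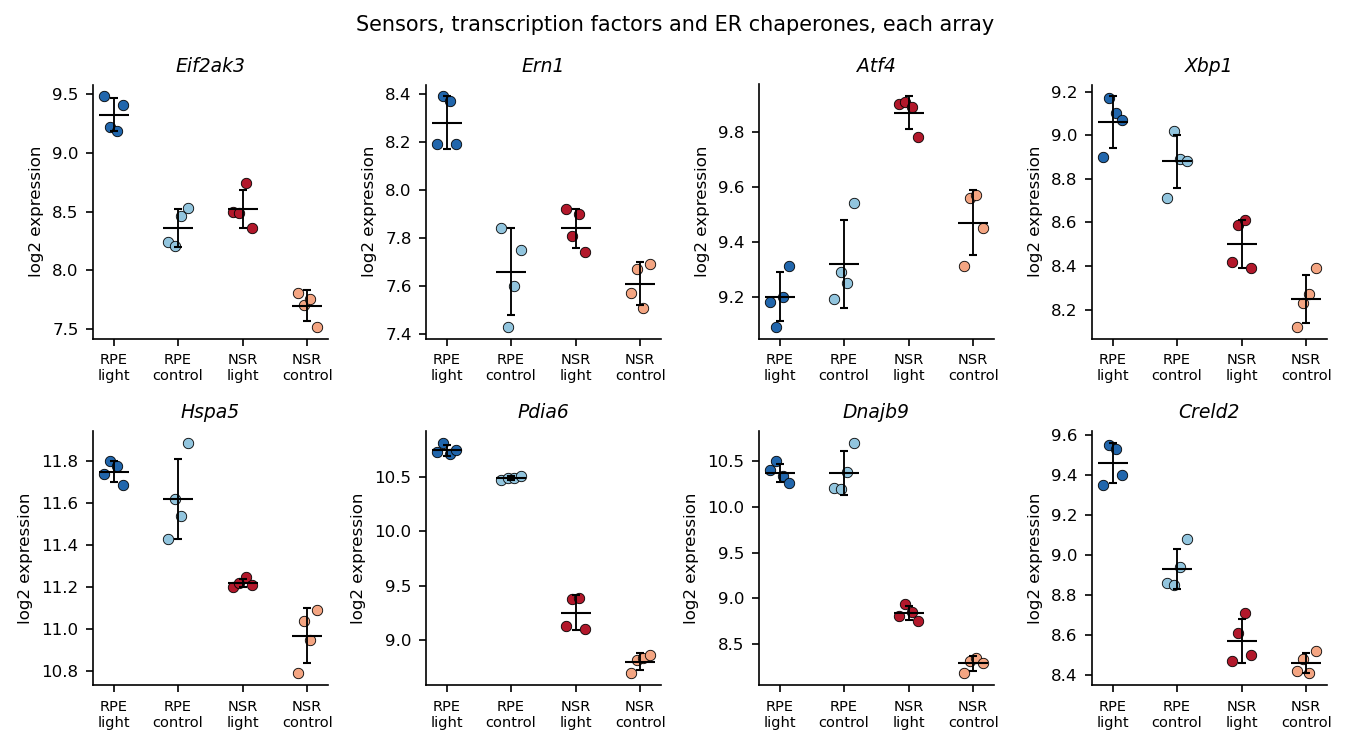
Each panel shows log2 expression of 1 gene on all 16 arrays, with bars at the mean and SD of 4 arrays. Light-exposed arrays of Eif2ak3 and Ern1 lie above control arrays in both tissues, while for Atf4, Hspa5 and Dnajb9 they lie above in NSR and overlap in RPE, and for Creld2 they lie above in RPE and overlap in NSR.

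Of the 14 ER chaperones and folding enzymes, 7 rose and 0 fell in light-exposed RPE, and 5 rose and 1 fell in light-exposed NSR. Their median log2 difference was 0.18 in RPE and 0.15 in NSR, against -0.01 and -0.02 over all genes. Of all genes tested, 9.08% rose and 8.53% fell in RPE, and 8.87% rose and 6.24% fell in NSR. Manf and Pdia6 rose in both tissues. The 7 that rose in RPE were Hyou1, Creld2, Manf, Sdf2l1, Pdia6, Calr and Dnajb11, and the 5 in NSR were Dnajb9, Pdia6, Manf, Dnajc3 and Hspa5.

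Hspa5 encodes BiP, the ER Hsp70 that holds the sensors inactive and is the usual readout of this response. It stood at 11.74, 11.80, 11.78 and 11.69 in light-exposed RPE, against 11.43, 11.62, 11.54 and 11.89 in control RPE. It stood at 11.20, 11.22, 11.25 and 11.21 in light-exposed NSR, against 10.79, 11.04, 10.95 and 11.09 in control NSR. RPE control 4 was above all light-exposed RPE arrays, while the NSR groups were separate. Hspa5 rose 1.19-fold in NSR (log2 difference 0.25, SE 0.07, adjusted p = 0.0367) and did not pass the test in RPE (log2 difference 0.13, SE 0.09, adjusted p = 0.427). Without RPE control 4 the RPE difference was 0.22 (adjusted p = 0.0787). The NSR call was lost without any of 6 single arrays (NSR control 1 or 3 or any light-exposed NSR array), with adjusted p between 0.0619 and 0.0936. It was also lost with the replicate number as a block, after centring the array medians and in the fit of all 16 arrays. The difference between the responses, RPE minus NSR, was -0.12 (95% interval -0.37 to 0.13).

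Pdia6, a protein disulfide isomerase, shapes disulfide bonds and also acts on IRE1 and PERK. It stood at 10.73, 10.82, 10.71 and 10.75 in light-exposed RPE, against 10.47, 10.49, 10.49 and 10.51 in control RPE. It stood at 9.13, 9.38, 9.39 and 9.10 in light-exposed NSR, against 8.69, 8.81, 8.83 and 8.86 in control NSR. The groups were separate in both tissues. The rise was 1.2-fold in RPE (log2 difference 0.26, SE 0.06, adjusted p = 0.00844) and 1.37-fold in NSR (log2 difference 0.46, SE 0.08, adjusted p = 0.00281).

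Manf is a secreted ER protein that is known to protect neurons and photoreceptors. It averaged 10.14 ± 0.11 in light-exposed RPE, against 9.73 ± 0.14 in control RPE (SD, n = 4), and 9.44 ± 0.08 in light-exposed NSR, against 9.05 ± 0.13 in control NSR. It rose 1.33-fold in RPE (log2 difference 0.41, SE 0.09, adjusted p = 0.00869) and 1.31-fold in NSR (log2 difference 0.39, SE 0.08, adjusted p = 0.0044). The difference between the responses, RPE minus NSR, was 0.02 (95% interval -0.23 to 0.27).

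The J-domain genes Dnajb9 and Dnajc3, cochaperones of BiP, rose in NSR. Dnajb9, which also returns IRE1 to its inactive state, stood at 10.40, 10.50, 10.33 and 10.26 in light-exposed RPE, against 10.20, 10.19, 10.38 and 10.70 in control RPE. It stood at 8.81, 8.94, 8.85 and 8.75 in light-exposed NSR, against 8.18, 8.32, 8.35 and 8.29 in control NSR. The RPE groups overlapped and had the same mean, while the NSR groups were separate. It rose 1.47-fold in NSR (log2 difference 0.55, SE 0.07, adjusted p = 0.000142), and in RPE the 95% interval ran from -0.25 to 0.25. Without RPE control 4 the RPE difference was 0.11 (adjusted p = 0.474). The difference between the responses, RPE minus NSR, was then -0.44 and still passed (adjusted p = 0.00939).

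Dnajc3, an inhibitor of eIF2alpha kinases as well as a cochaperone, stood at 11.39, 11.45, 11.32 and 11.28 in light-exposed RPE, against 11.37, 11.37, 11.43 and 11.47 in control RPE. It stood at 10.10, 10.25, 10.15 and 10.14 in light-exposed NSR, against 9.74, 9.97, 9.84 and 10.03 in control NSR. Only the NSR groups were separate. It rose 1.2-fold in NSR (log2 difference 0.27, SE 0.08, adjusted p = 0.0328), a call lost without any of 5 single arrays (NSR control 1 or 3 or NSR light 2, 3 or 4; adjusted p 0.0541 to 0.0926).

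Pdia4, another disulfide isomerase, was the 1 chaperone or folding gene that fell. It stood at 10.12, 10.20, 10.16 and 10.19 in light-exposed RPE, against 10.14, 10.06, 10.19 and 10.03 in control RPE. It stood at 8.82, 8.98, 8.79 and 8.88 in light-exposed NSR, against 9.10, 9.22, 9.04 and 9.21 in control NSR. The RPE groups overlapped, and every light-exposed NSR array lay below every control NSR array. It fell in NSR by 0.28 on the log2 scale (SE 0.07, adjusted p = 0.0212), and the call was lost without NSR control 2 or 4 or NSR light 1 or 3 (adjusted p 0.0555 to 0.062). A dimmer second cluster of Pdia4, with a mean of 5.24, differed by -0.23 in RPE and -0.65 in NSR.

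Creld2, a secreted ER protein with disulfide isomerase activity, rose in RPE. It stood at 9.35, 9.55, 9.53 and 9.40 in light-exposed RPE, against 8.86, 8.85, 8.94 and 9.08 in control RPE. It stood at 8.47, 8.61, 8.71 and 8.50 in light-exposed NSR, against 8.42, 8.48, 8.41 and 8.52 in control NSR. The RPE groups were separate and the NSR groups overlapped. The rise in RPE was 1.44-fold (log2 difference 0.53, SE 0.08, adjusted p = 0.00108), and in NSR the difference was 0.11 (adjusted p = 0.32).

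Hyou1, a large ER Hsp70 relative that serves as nucleotide exchange factor of BiP, averaged 9.34 ± 0.12 in light-exposed RPE, against 8.78 ± 0.07 in control RPE and rose 1.48-fold there (log2 difference 0.57, SE 0.07, adjusted p = 0.000641). In NSR it differed by 0.23 (adjusted p = 0.0945), and it passed without NSR light 1 (adjusted p = 0.0456). Sdf2l1, a partner of the J-domain protein Dnajb11, rose 1.27-fold in RPE (log2 difference 0.35, SE 0.09, adjusted p = 0.024). Dnajb11 itself rose 1.18-fold (log2 difference 0.24, SE 0.06, adjusted p = 0.0161), and the lectin chaperone Calr 1.2-fold (log2 difference 0.26, SE 0.07, adjusted p = 0.0252). These rises were smaller than that of Hyou1, and all 3 calls were lost without the 3 RPE arrays named above, where the log2 differences were 0.35 for Sdf2l1, 0.23 for Dnajb11 and 0.26 for Calr (adjusted p 0.0623, 0.163 and 0.191). That of Pdia6 was lost too (0.24, adjusted p = 0.131). Single arrays also decided Calr (any of 5, RPE control 1 or 3 or RPE light 1, 2 or 4, adjusted p 0.0512 to 0.0655) and Sdf2l1 (any of 4, RPE control 1 or 2 or RPE light 2 or 4, adjusted p 0.0562 to 0.0697). With the replicate number as a block, Calr and Dnajb11 lost their calls too.

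The lectin chaperone Canx, the Hsp90 relative Hsp90b1 and the glycoprotein disulfide isomerase Pdia3 passed in neither tissue. Canx differed by -0.06 in RPE (95% interval -0.18 to 0.07) and 0.04 in NSR (-0.08 to 0.17). Hsp90b1 differed by 0.08 (-0.05 to 0.20) in RPE and -0.04 (-0.17 to 0.09) in NSR. Pdia3 differed by 0.10 (-0.04 to 0.23) in RPE and 0.12 (-0.08 to 0.33) in NSR. In NSR the chaperones Calr, Dnajb11 and Sdf2l1 had differences of 0.07, 0.15 and 0.14. Canx and Hsp90b1 both carry the element printed above, as do Hspa5, Pdia6, Calr, Creld2 and Dnajc3, so that genes with the same letters in their promoters stood on both sides of the threshold in both tissues.

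Of the 4 degradation genes, which recognise misfolded proteins and pass them out of the ER, 1 rose in RPE and 0 fell. None passed in NSR, where their differences lay between 0.11 and 0.32. Of all genes tested, 9.08% rose in RPE and 8.87% in NSR. Edem1, a lectin that selects misfolded glycoproteins, stood at 7.86, 7.95, 8.01 and 7.69 in light-exposed RPE, against 7.29, 7.39, 7.34 and 6.96 in control RPE. It stood at 7.39, 7.42, 7.16 and 7.56 in light-exposed NSR, against 7.30, 6.93, 7.15 and 7.33 in control NSR. The RPE groups were separate and the NSR groups overlapped. It rose 1.55-fold in RPE (log2 difference 0.63, SE 0.11, adjusted p = 0.00228), and its difference in NSR was 0.21 (adjusted p = 0.222).

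Syvn1, the ubiquitin ligase HRD1, differed by 0.20 in RPE (adjusted p = 0.0646) and by 0.11 in NSR (adjusted p = 0.439). Its partner Sel1l had a 95% interval of -0.13 to 0.12 in RPE and a difference of 0.13 in NSR (adjusted p = 0.176). Syvn1 passed in RPE without RPE control 4 (0.25, adjusted p = 0.0246), without the dimmest 25% of genes and with another variance prior. Herpud1, an adaptor of this ligase, differed by -0.15 in RPE (95% interval -0.46 to 0.17) and by 0.32 in NSR (0.09 to 0.55; adjusted p = 0.0613). It passed in NSR without NSR control 2 (adjusted p = 0.0187) and with the replicate number as a block. Leaving out the dimmest 25% of genes or using another variance prior gave this NSR call too. Without RPE control 4 the RPE difference of Herpud1 was -0.01 (adjusted p = 0.974).

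The 13 ATF4 targets moved both ways in both tissues: 4 rose and 5 fell in light-exposed RPE, and 3 rose and 5 fell in light-exposed NSR. Their median log2 difference was -0.06 in RPE and -0.07 in NSR, below the medians of the chaperones (0.18 and 0.15) and near those of all genes (-0.01 and -0.02). The shares of all genes that rose and fell were 9.08% and 8.53% in RPE, and 8.87% and 6.24% in NSR. The genes that rose in RPE were Asns, Ddit3, Slc7a5 and Slc3a2, and those in NSR Asns, Ddit3 and Atf5. Ddit4, Phgdh, Psat1 and Vldlr fell in both, Ppp1r15a in RPE and Slc7a5 in NSR. These counts and medians hold for the 13 listed targets alone. Of 40 other genes of the integrated stress response, given further below, 11 rose and 7 fell in RPE, and 13 rose and 2 fell in NSR.

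Ddit3 encodes CHOP, a transcription factor linked to cell death under prolonged ER stress. It stood at 10.47, 10.55, 11.01 and 10.61 in light-exposed RPE, against 9.61, 9.76, 9.68 and 10.52 in control RPE. It stood at 10.31, 10.38, 10.31 and 10.35 in light-exposed NSR, against 9.90, 9.99, 9.98 and 9.91 in control NSR. RPE control 4 stood well above the other control RPE arrays and above 1 light-exposed array, while the NSR groups were separate. The rise was 1.7-fold in RPE (log2 difference 0.77, SE 0.20, adjusted p = 0.0219) and 1.31-fold in NSR (log2 difference 0.39, SE 0.06, adjusted p = 0.000688). Without RPE control 4 the RPE difference was 0.98 (adjusted p = 0.00125), while without RPE control 1, 2 or 3 or RPE light 3 the call was lost (adjusted p 0.059 to 0.0645), as it was without the 3 RPE arrays (0.88, adjusted p = 0.0982). The NSR call was lost in the fit of all 16 arrays (adjusted p = 0.103), in which both tissues share 1 estimate of the spread.

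Asns, asparagine synthetase, also rose in both tissues. It stood at 6.47, 5.57, 6.13 and 6.20 in light-exposed RPE, against 5.18, 5.23, 5.31 and 5.06 in control RPE. It stood at 9.22, 9.32, 9.33 and 9.21 in light-exposed NSR, against 8.27, 8.92, 8.91 and 8.77 in control NSR. Both pairs of groups were separate. The rise was 1.86-fold in RPE (log2 difference 0.89, SE 0.16, adjusted p = 0.0035) and 1.47-fold in NSR (log2 difference 0.55, SE 0.13, adjusted p = 0.0109). The control RPE mean of 5.20 lay in the range of the dimmest 25% of genes (below 5.63), where the height above background is unknown, so that the size of the RPE fold is uncertain.

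Phgdh and Psat1, which fell in both tissues, encode consecutive enzymes of serine synthesis. Phgdh stood at 7.94, 8.06, 7.85 and 8.00 in light-exposed RPE, against 8.57, 8.30, 8.65 and 8.91 in control RPE. It stood at 6.82, 6.40, 7.05 and 6.80 in light-exposed NSR, against 7.22, 6.98, 7.64 and 7.44 in control NSR. The RPE groups were separate, and in NSR light 3 lay above control 2. It was 1.56-fold lower in light-exposed RPE (log2 difference -0.64, SE 0.12, adjusted p = 0.00373) and 1.46-fold lower in light-exposed NSR (log2 difference -0.55, SE 0.15, adjusted p = 0.0293), and the NSR call was lost without any of 5 single arrays (NSR control 3 or 4 or NSR light 1, 2 or 4; adjusted p 0.051 to 0.0792).

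Psat1 stood at 8.64, 8.69, 8.36 and 8.65 in light-exposed RPE, against 9.16, 9.09, 9.17 and 9.22 in control RPE. It stood at 7.45, 7.37, 7.59 and 7.58 in light-exposed NSR, against 7.65, 7.77, 7.71 and 7.76 in control NSR. Every light-exposed array lay below every control array of its tissue. It was 1.49-fold lower in light-exposed RPE (log2 difference -0.58, SE 0.08, adjusted p = 0.000947) and 1.17-fold lower in light-exposed NSR (log2 difference -0.23, SE 0.07, adjusted p = 0.0483). The NSR call was lost without any control NSR array or NSR light 1 or 2 (adjusted p 0.0583 to 0.133). It was also lost with the replicate number as a block, with another variance prior and in the fit of all 16 arrays.

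Slc7a5 and Slc3a2 encode the light and heavy chains of a carrier of large neutral amino acids. Slc7a5 stood at 10.95, 11.07, 10.76 and 11.12 in light-exposed RPE, against 10.25, 10.14, 10.41 and 10.23 in control RPE. It stood at 8.45, 8.58, 8.60 and 8.25 in light-exposed NSR, against 8.71, 9.07, 8.99 and 9.02 in control NSR. The groups were separate in both tissues, in opposite directions. Slc7a5 was 1.65-fold higher in light-exposed RPE (log2 difference 0.72, SE 0.09, adjusted p = 0.000503) and 1.39-fold lower in light-exposed NSR (log2 difference -0.48, SE 0.10, adjusted p = 0.00611). Slc3a2 averaged 11.26 ± 0.06 in light-exposed RPE, against 10.89 ± 0.08 in control RPE and rose 1.29-fold there (log2 difference 0.37, SE 0.06, adjusted p = 0.00294), and in NSR it differed by 0.19 (adjusted p = 0.108).

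Ppp1r15a, the inducible subunit that lets phosphatase 1 remove the phosphate from eIF2alpha, fell in RPE. It stood at 7.80, 8.01, 8.09 and 7.95 in light-exposed RPE, against 8.68, 8.64, 8.52 and 9.09 in control RPE. It stood at 7.17, 7.33, 7.71 and 7.25 in light-exposed NSR, against 7.23, 7.19, 6.99 and 7.18 in control NSR. Every light-exposed RPE array lay below every control RPE array, and the NSR groups overlapped. It was 1.7-fold lower in light-exposed RPE (log2 difference -0.77, SE 0.12, adjusted p = 0.00166) and differed by 0.22 in NSR (adjusted p = 0.223). Ppp1r15b, the constitutive subunit of the same phosphatase, averaged 9.39 ± 0.08 in light-exposed RPE, against 9.02 ± 0.04 in control RPE and rose 1.29-fold (log2 difference 0.37, SE 0.06, adjusted p = 0.0027). Its NSR difference was 0.17 (adjusted p = 0.204). The RPE call of Ppp1r15b was lost without the 3 RPE arrays (0.34, adjusted p = 0.063) and with the mean of its clusters, of which the dimmer one differed by 0.03 in RPE and -0.06 in NSR.

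Vldlr, a lipoprotein receptor, had the largest fall in NSR. It stood at 10.44, 10.35, 10.06 and 10.54 in light-exposed RPE, against 11.06, 10.89, 10.95 and 10.99 in control RPE. It stood at 10.65, 10.66, 10.49 and 10.74 in light-exposed NSR, against 11.34, 11.36, 11.32 and 11.27 in control NSR. The groups were separate in both tissues. It was 1.54-fold lower in light-exposed RPE (log2 difference -0.62, SE 0.10, adjusted p = 0.00195) and 1.61-fold lower in light-exposed NSR (log2 difference -0.69, SE 0.07, adjusted p = 2.8e-05). Ddit4, an inhibitor of mTORC1, was 1.34-fold lower in light-exposed RPE (log2 difference -0.43, SE 0.07, adjusted p = 0.0021) and 1.3-fold lower in light-exposed NSR (log2 difference -0.37, SE 0.08, adjusted p = 0.0059). The RPE call of Ddit4 was lost without the 3 RPE arrays (-0.37, adjusted p = 0.0582). Atf5, a transcription factor whose translation is controlled like that of ATF4, rose 1.25-fold in NSR (log2 difference 0.33, SE 0.07, adjusted p = 0.00853) and differed by 0.02 in RPE (95% interval -0.15 to 0.19).

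Trib3, a pseudokinase that restrains ATF4, Chac1, which breaks down glutathione, and Sesn2, a leucine sensor upstream of mTORC1, passed in neither tissue. Trib3 differed by -0.13 in RPE (95% interval -0.30 to 0.03) and by -0.18 in NSR (-0.33 to -0.02). Chac1 differed by 0.08 in RPE (-0.10 to 0.25) and by -0.07 in NSR (-0.23 to 0.09). Sesn2 differed by -0.06 in RPE (-0.20 to 0.08) and by -0.03 in NSR (-0.26 to 0.19). Of the 4 ATF4 targets with the composite core in the promoter window, Asns rose in both tissues, Vldlr fell in both, and Chac1 and Trib3 passed in neither.

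**Figure D4:**
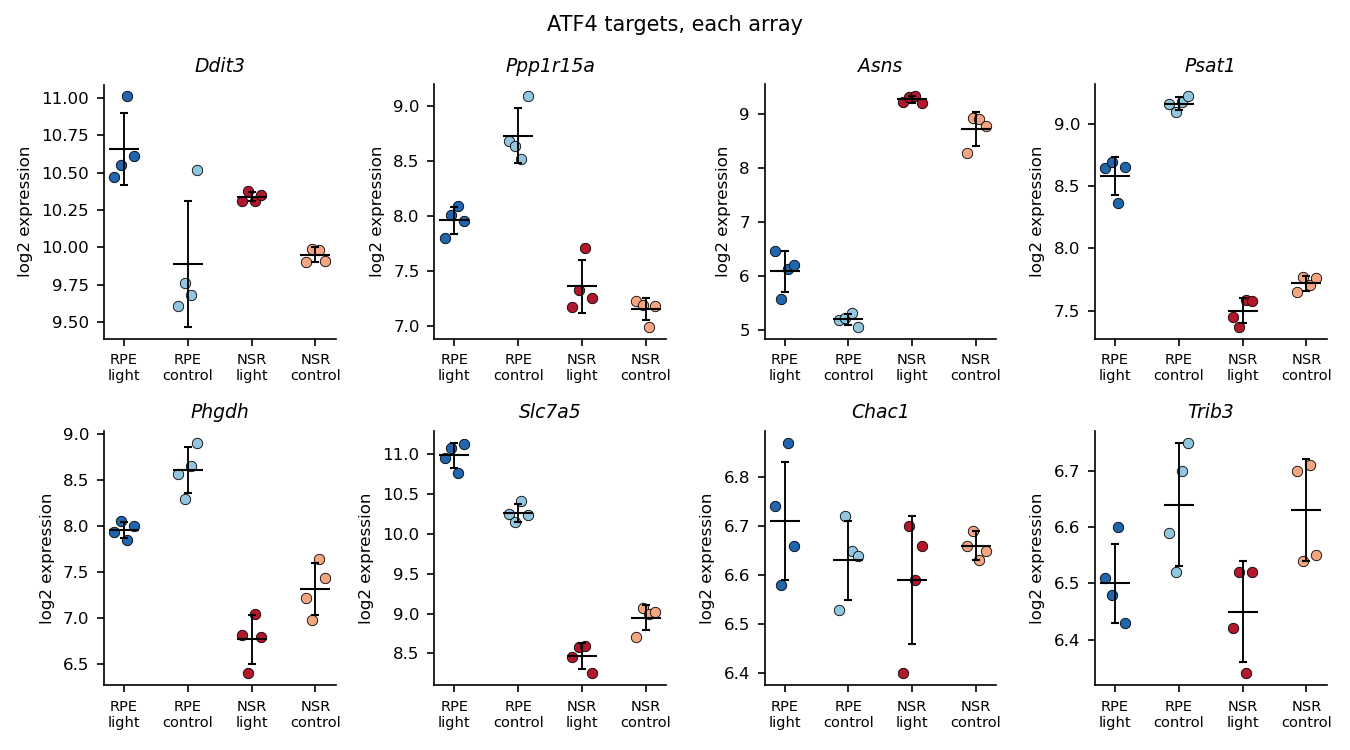
Each panel shows log2 expression of 1 ATF4 target on all 16 arrays, with bars at the mean and SD of 4 arrays. Asns lies higher in light-exposed arrays of both tissues, Psat1 lower, Slc7a5 higher in the RPE and lower in the NSR, and RPE control 4 stands apart in Ddit3 at 10.52.

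The difference between the light responses, RPE minus NSR, was tested in 1 fit of all 16 arrays. The response was higher in RPE for 4 genes (Slc7a5, Creld2, Ern1 and Pdia4) and lower for 5 (Ppp1r15a, Dnajb9, Atf4, Psat1 and Dnajc3), where 5.16% of all genes tested were higher and 8.05% lower. After quantile normalization of all arrays the counts were 6 higher and 4 lower, where 6.46% and 7.3% of all genes were. Without the 3 RPE arrays they were 2 and 6, where 4.43% and 7.0% of all genes were. Slc7a5 had the largest difference (log2 difference 1.20, SE 0.14, adjusted p = 1.59e-05), that is 2.29-fold, from a rise in RPE and a fall in NSR. For Ppp1r15a it was -0.98 (SE 0.17, adjusted p = 0.000793), from a fall in RPE. For Dnajb9 it was -0.55 (SE 0.13, adjusted p = 0.00969) and for Atf4 -0.52 (SE 0.11, adjusted p = 0.00446), both from a rise in NSR. For Creld2 it was 0.41 (SE 0.10, adjusted p = 0.0105), from a rise in RPE.

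The other 4 differences were smaller and less stable. Ern1 rose by more in RPE (log2 difference 0.39, SE 0.12, adjusted p = 0.0364), a call lost without any of 9 single arrays (NSR control 1, 2 or 4, NSR light 2 or 4, RPE control 2 or 3, RPE light 2 or 3; adjusted p 0.0502 to 0.0747), without the 3 RPE arrays (0.32, adjusted p = 0.117) and with the mouse as a block (adjusted p = 0.0606). Psat1 fell by more in RPE (log2 difference -0.35, SE 0.11, adjusted p = 0.0347). This call was lost without any of 8 single arrays (NSR control 1 or 3, NSR light 3 or 4, RPE control 1, 3 or 4, RPE light 3, adjusted p 0.0545 to 0.0715). It was also lost with the mouse as a block (adjusted p = 0.0968), after centring the array medians and after quantile normalization. Dnajc3 (log2 difference -0.32, SE 0.10, adjusted p = 0.0321) lost its call without any of 7 single arrays (NSR control 1 or 3, NSR light 2, RPE control 3 or 4, RPE light 3 or 4; adjusted p 0.0574 to 0.0714). Pdia4 (log2 difference 0.34, SE 0.09, adjusted p = 0.0164) kept its call without each single array and lost it without the 3 RPE arrays (0.33, adjusted p = 0.0712) and with the mouse as a block (adjusted p = 0.0582). Hyou1, with a difference of 0.34, did not pass in the main fit (adjusted p = 0.0645) and passed with that block (adjusted p = 0.0477). It also passed without NSR control 1 or NSR light 2 (adjusted p 0.0288 to 0.0384). After quantile normalization and without the dimmest 25% of genes it passed too. The mouse as a block pairs the RPE and NSR of each animal.

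A call in 1 tissue did not always mean a tested difference. Of 9 genes called in RPE and not in NSR, the difference passed for Creld2 and Ppp1r15a, and for Calr, Dnajb11, Edem1, Hyou1, Ppp1r15b, Sdf2l1 and Slc3a2 it did not (log2 differences between 0.08 and 0.43). Of 6 genes called in NSR and not in RPE, it passed for Atf4, Dnajb9, Dnajc3 and Pdia4 and not for Hspa5 (-0.12) or Atf5 (-0.31, adjusted p = 0.0599). Atf5 passed without NSR control 4, NSR light 4, RPE control 2 or RPE light 1 (adjusted p 0.0287 to 0.0491). It also passed without the dimmest 25% of genes and without the 3 RPE arrays (-0.43, adjusted p = 0.0237). For Ddit3 the difference was 0.38 (95% interval -0.08 to 0.83), and without RPE control 4 it was 0.59 and passed (adjusted p = 0.00767).

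More of these genes differed between the tissues than between light and control. In control mice, 27 of the 38 genes were higher in RPE than in NSR and 3 lower, where 30.8% of all genes were higher and 24.2% lower, and the median log2 difference was 0.61 for the 38 genes and 0.04 for all genes. In light-exposed mice 28 were higher and 4 lower, where 34.4% of all genes were higher and 23.6% lower, and the medians were 0.58 and 0.08. Of the 14 chaperones and folding genes, 13 were higher in control RPE and 0 lower, and 12 and 0 in light-exposed mice. Of the 13 ATF4 targets, 8 were higher and 2 lower in both. The chaperone counts depend on scaling. After quantile normalization, Hsp90b1 was lower in control RPE (log2 difference -0.27, adjusted p = 5.49e-05). Canx was then lower in light-exposed RPE (-0.18, adjusted p = 0.00215). These comparisons use the same arrays as the light comparisons, and the isolated RPE and the NSR differ in their cell types.

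Dnajb9 had the largest excess in control RPE. It stood at 10.20, 10.19, 10.38 and 10.70 in control RPE, against 8.18, 8.32, 8.35 and 8.29 in control NSR, 4.23-fold higher in RPE (log2 difference 2.08, SE 0.09, adjusted p = 1.81e-12). Pdia6 stood at 10.47, 10.49, 10.49 and 10.51 in control RPE, against 8.69, 8.81, 8.83 and 8.86 in control NSR, 3.24-fold higher (log2 difference 1.69, SE 0.07, adjusted p = 5.42e-13). For both genes every RPE array lay more than 1 log2 unit above every NSR array, in light-exposed mice too, where Dnajb9 was 2.89-fold and Pdia6 2.83-fold higher in RPE. Slc3a2 stood at 10.99, 10.87, 10.89 and 10.79 in control RPE, against 9.20, 9.20, 9.14 and 9.30 in control NSR, 3.2-fold higher in RPE (log2 difference 1.68, SE 0.07, adjusted p = 3.41e-13). Ppp1r15a averaged 8.73 ± 0.25 in control RPE, against 7.15 ± 0.10 in control NSR (SD, n = 4), 3-fold higher in RPE, and after light the excess was 1.52-fold. Slc7a5, with its opposite responses, was 5.68-fold higher in RPE in light-exposed mice and 2.48-fold in control mice.

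The genes lower in RPE were few. Asns was 11.5-fold lower in control RPE (log2 difference -3.52, SE 0.16, adjusted p = 1.3e-12), a size that rests on dim RPE values. Vldlr averaged 10.97 ± 0.07 in control RPE, against 11.32 ± 0.04 in control NSR and was 1.27-fold lower in RPE (log2 difference -0.35, SE 0.09, adjusted p = 0.00217). Atf6 averaged 9.27 ± 0.05 in control RPE, against 9.53 ± 0.02 in control NSR and was 1.2-fold lower (log2 difference -0.26, SE 0.06, adjusted p = 0.00203). Atf4 differed by -0.15 in control mice (adjusted p = 0.117) and by -0.67 in light-exposed mice (adjusted p = 9.37e-07), where it was 1.6-fold lower in RPE. In control mice Atf4 passed without NSR control 1 or RPE control 4 (adjusted p between 0.0158 and 0.0423), and after quantile normalization. Canx, 1.15-fold higher in control RPE, turned to a log2 difference of -0.07 after quantile normalization.

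**Figure D5:**
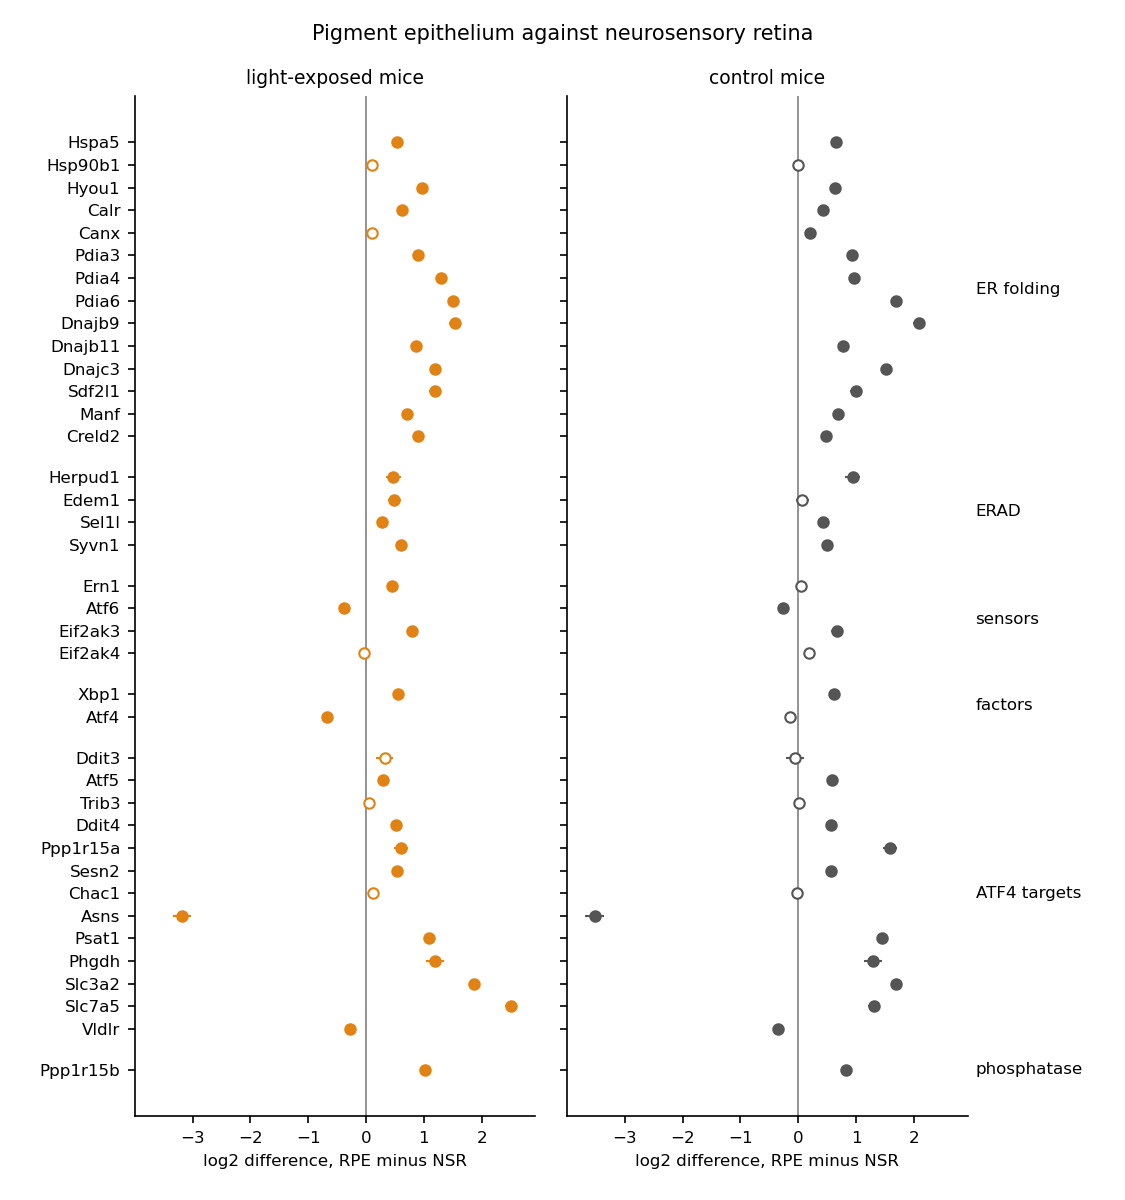
Points give each gene's log2 difference, RPE minus NSR, with its standard error, in light-exposed mice (left) and control mice (right), 4 arrays a group, and filled points passed the test. In control mice 13 of 14 ER folding genes lie filled and right of 0, and Asns lies farthest to the left at -3.52.

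Other genes of the same pathways were read beside the 38. They are given from the main fit only, and not without the 3 RPE arrays or in the other alternatives. Of 46 other measured genes of ER folding, translocation and degradation, 21 rose and 4 fell in light-exposed RPE, where 9.08% of all genes rose and 8.53% fell. In light-exposed NSR 8 rose and 3 fell, where 8.87% of all genes rose and 6.24% fell. Their median log2 difference was 0.20 in RPE and 0.07 in NSR, against -0.01 and -0.02 over all genes. The response was higher in RPE for 11 of them and lower for 2, where 5.16% of all genes were higher and 8.05% lower. In RPE the largest changes were those of P4hb, the beta subunit of prolyl hydroxylase and a disulfide isomerase, Creb3l2, an ER-bound transcription factor, and Pdia5, a further disulfide isomerase. P4hb stood at 10.68, 10.84, 10.88 and 10.63 in light-exposed RPE, against 9.42, 9.45, 9.46 and 9.45 in control RPE. The groups were separate by more than 1 log2 unit, and P4hb rose 2.48-fold (log2 difference 1.31, SE 0.07, adjusted p = 4.04e-06), more than any of the 38 genes in either tissue. In NSR P4hb differed by 0.21 (adjusted p = 0.0599). Creb3l2 rose 2.16-fold in RPE (log2 difference 1.11, SE 0.08, adjusted p = 3.29e-05) and differed by -0.12 in NSR (adjusted p = 0.414).

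Pdia5 went opposite ways. It stood at 7.02, 7.23, 7.38 and 7.39 in light-exposed RPE, against 6.28, 6.40, 6.18 and 6.47 in control RPE. It stood at 7.70, 7.86, 7.83 and 7.97 in light-exposed NSR, against 8.16, 8.10, 8.25 and 8.37 in control NSR. The groups were separate in both tissues. It was 1.89-fold higher in light-exposed RPE (log2 difference 0.92, SE 0.10, adjusted p = 0.000183) and 1.3-fold lower in light-exposed NSR (log2 difference -0.38, SE 0.08, adjusted p = 0.00658), and the difference between the responses was 1.30 (adjusted p = 2.66e-06). In NSR the other leading genes were Wfs1, an ER membrane protein of calcium balance, which rose 1.57-fold (log2 difference 0.65, SE 0.09, adjusted p = 0.0004), and Sec61a1, the channel of ER import, which rose 1.44-fold (log2 difference 0.52, SE 0.11, adjusted p = 0.00839). Sec61a1 rose in RPE too, 1.67-fold (log2 difference 0.74, SE 0.06, adjusted p = 6.11e-05), with separate groups in both tissues, while Wfs1 differed by 0.06 in RPE (adjusted p = 0.718).

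Of 40 other measured genes of the integrated stress response, 11 rose and 7 fell in light-exposed RPE, where 9.08% of all genes rose and 8.53% fell. In light-exposed NSR 13 rose and 2 fell, where the shares of all genes were 8.87% and 6.24%. Their median log2 difference was 0.08 in RPE and 0.07 in NSR. The response was higher in RPE for 6 and lower for 12, where the shares of all genes were 5.16% and 8.05%. In NSR the leading genes were Eif2ak2, which encodes the eIF2alpha kinase PKR and is also induced by interferon, the stress-induced chromatin protein Nupr1 and the transcription factor Atf3. Eif2ak2 stood at 9.15, 9.06, 9.37 and 9.09 in light-exposed RPE, against 8.61, 8.71, 8.53 and 8.63 in control RPE. It stood at 8.76, 8.59, 8.79 and 8.51 in light-exposed NSR, against 5.55, 5.98, 5.64 and 5.97 in control NSR. The groups were separate in both tissues, by the wider margin in NSR. Eif2ak2 rose 1.46-fold in RPE (log2 difference 0.55, SE 0.08, adjusted p = 0.00112) and 7.37-fold in NSR (log2 difference 2.88, SE 0.11, adjusted p = 9.66e-09). The difference between the responses was -2.34 (adjusted p = 1.49e-08).

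Nupr1 stood at 8.96, 8.88, 8.88 and 8.89 in light-exposed RPE, against 7.69, 8.56, 8.25 and 7.93 in control RPE. It stood at 9.86, 9.91, 10.36 and 9.88 in light-exposed NSR, against 7.48, 7.35, 7.42 and 7.25 in control NSR. Neither pair of groups overlapped. Nupr1 rose 1.74-fold in RPE (log2 difference 0.80, SE 0.16, adjusted p = 0.00551) and 6.18-fold in NSR (log2 difference 2.63, SE 0.11, adjusted p = 1.76e-08), and the difference between the responses was -1.83 (adjusted p = 8.52e-06). Atf3 stood at 9.0, 8.75, 9.01 and 8.67 in light-exposed NSR, against 7.35, 6.81, 7.07 and 6.79 in control NSR, and rose 3.61-fold (log2 difference 1.85, SE 0.13, adjusted p = 1.14e-06), while in RPE it differed by -0.26 (adjusted p = 0.599). The NSR rises of Nupr1 and Atf3 exceeded every change among the 13 ATF4 targets above. Slc7a11, next on this list in NSR, averaged 8.84 ± 0.07 in light-exposed NSR, against 6.99 ± 0.09 in control NSR. In RPE it was dim, at 5.32 ± 0.28 in light-exposed arrays, against 4.97 ± 0.30 in control arrays. In RPE the leading genes were Gadd45a, a growth arrest gene, which rose 1.98-fold (log2 difference 0.98, SE 0.18, adjusted p = 0.00384), the angiogenic factor Vegfa, which was 1.85-fold lower (log2 difference -0.89, SE 0.08, adjusted p = 7.92e-05), and Cth, which makes cysteine and was 1.84-fold lower (log2 difference -0.88, SE 0.10, adjusted p = 0.000267). In NSR Gadd45a differed by 0.17 and Vegfa by 0.11 (adjusted p 0.14 and 0.464), and Cth was 1.34-fold lower as well (log2 difference -0.42, SE 0.08, adjusted p = 0.00245).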

How the data were processed

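RNA of each tissue was hybridised to 16 one-colour arrays, 1 per mouse and tissue, and the values used are the log2 expression deposited by the authors, which the submitters' processing notes credit to RMA in Partek 6.6; the log2 base was read from the range of the values (2.20 to 13.84). Depth has no meaning for arrays, and the 4 arrays per group limit the precision. Of 35556 transcript clusters, 21789 had 1 gene symbol, 1621 several and 12146 none in the platform annotation. Clusters with 1 symbol were kept, and of the 999 genes with several clusters the brightest was used, which left 19938 genes. limma 3.58.1 (R 4.3.3) was fitted per tissue for the light comparisons, and over all 16 arrays for the difference between the responses and for RPE against NSR. Benjamini-Hochberg adjustment covered all genes, and 95% intervals are unadjusted. Genes are given with the value of every array where they were among the largest changes of a comparison, had a tested difference between the responses or are central to the pathway. On simulated data of 19938 genes with 200 changed, 2-fold changes were recovered in 98% of cases for RPE, 96% for NSR and 95% for the difference, and 1.5-fold changes in 83%, 82% and 63%. The smallest changes described here are below those sizes. The simulation gave each gene the same spread in both tissues and changed fewer genes than were called in the data. The rates may therefore not hold for the tests of each tissue.

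RPE and NSR samples are paired through the mouse identifier that the labels give for each sample, and the deviations of the pair from their group means correlated between -0.011 and 0.053 over 8 mice. Light-exposed and control mice share only a number. The replicate block paired them by this number in the light comparisons, so there it pairs different animals. In the other comparisons the block was the mouse. No array was a copy of another, with mean absolute differences of at least 0.13. The 38 genes, the other pathway lists, the markers and the 3 RPE arrays left out in 1 alternative were chosen with earlier results of these data known, so their counts are descriptions. Promoter windows came from RefSeq, GRCm38.p6, and were searched with Python 3.11.15. Sequences of the other 5 genes (Hyou1, Manf, Atf6, Slc7a5 and Ppp1r15b) are not shown here. Alternatives tried were leaving out each array, the replicate block, other scalings, a filter on dim genes, the mean of clusters, another variance prior and the fit of all arrays.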

Additional observations from a re-analysis of the deposited data

Results flagged for a closer look

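In 7 of 152 groups of 4 arrays, 1 array stood far from the other 3 by Dixon's criterion, where chance alone is known to give about 1 in 20. In the RPE, Ddit3 was 10.52 in control 4, against 9.61 to 9.76 in the other control arrays. Eif2ak4 was 7.55 in light 4 (others 7.24 to 7.29) and 7.82 in control 4 (others 7.43 to 7.48). Psat1 was 8.36 in light 3 (others 8.64 to 8.69), and Sesn2 was 7.32 in control 2 (others 7.39 to 7.41). In the NSR, Dnajb11 was 9.98 in light 2 (others 9.74 to 9.77), and Syvn1 was 8.37 in light 4 (others 8.62 to 8.65).

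For 9 genes the light response differed between the tissues in a test of the difference, RPE minus NSR, on the log2 scale. It was 1.20 for Slc7a5, 0.41 for Creld2, 0.39 for Ern1 and 0.34 for Pdia4. It was -0.98 for Ppp1r15a, -0.55 for Dnajb9, -0.52 for Atf4, -0.35 for Psat1 and -0.32 for Dnajc3.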

How the results depend on the processing

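Of the 20 calls in RPE, 13 held in each of 16 alternatives. Of the 17 in NSR, 10 held in each of 15, and of the 9 differences between the responses, 5 in each of 23. Of the 30 tissue calls in control mice, 28 held in each of 15, as did 31 of 32 in light-exposed mice. Without the 3 RPE arrays, 9 genes rose in RPE and 2 had a higher response in RPE. Leaving out 1 array at a time gave 12 to 16 higher and 5 lower genes in RPE, 8 to 12 higher and 3 to 5 lower in NSR, and 3 to 5 higher and 3 to 6 lower differences. In NSR, 3 were lower without control 4 or light 1, and 3 differences were lower without NSR control 1 or 3, RPE control 3 or 4 or RPE light 3. For RPE against NSR the ranges were 27 higher and 3 to 5 lower in control mice (5 without RPE control 4), and 28 and 4 in light-exposed mice. The chaperones' median ranged from 0.15 to 0.24 in RPE and from 0.11 to 0.20 in NSR, and that of ATF4 targets from -0.10 to -0.04 and from -0.12 to -0.06. With the replicate number as a block, which pairs different animals, 13 rose and 5 fell in RPE, and 10 and 5 in NSR. With the mouse as a block, 3 differences were higher and 4 lower. RPE against NSR then gave 27 and 3 in control mice and 28 and 4 in light-exposed mice. After quantile normalization, 5 genes were lower in control RPE, among them Hsp90b1. Canx then turned to -0.07 in control mice (adjusted p = 0.176) and -0.18 in light-exposed mice (adjusted p = 0.00215). With the mean of its clusters, Pdia4 turned to -0.12 in control RPE against control NSR (adjusted p = 0.275). The cause was not tested. The height of dim probes above background is not known here, which limits Asns in RPE.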
